A study of Caenorhabditis elegans with 2 samples.

Results

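Heat shock proteins and their partner chaperones were taken as the protein-coding genes whose names begin with hsp-, cct- or dnj- in the Ensembl annotation of the WBcel235 assembly. The rule found 59 of 19973 protein-coding genes: 22 named hsp-, 8 named cct- and 29 named dnj-. The names hsp-16.1 and hsp-16.48 stand at 2 gene identifiers each, and the second copies are called hsp-16.11 and hsp-16.49 here, after RefSeq. Chromatin immunoprecipitation with sequencing (ChIP-seq) was done on whole Caenorhabditis elegans at the L2 larval stage, against the nuclear hormone receptor NHR-129 carrying an eGFP tag. All animals were of strain OP339, which carries the allele unc-119(ed3) III and the integrated transgene wgIs339, and males and females were pooled. There were 2 biological replicates of this single group, and the values below are descriptions without a test. An untagged strain was not analysed here, the promoter that drives the transgene and its copy number are not stated in the labels, and cell types cannot be told apart in whole animals.

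Chaperones bind unfolded or unstable proteins and help them to fold. Hsp70 proteins do so in cycles of ATP hydrolysis that J-domain proteins start and nucleotide exchange factors such as Hsp110 reset. Hsp90 acts on clients that are partly folded, chaperonins enclose a substrate in a barrel, and small heat shock proteins hold unfolded proteins without ATP. Each of these systems has cytosolic forms. Hsp70, Hsp90 and J proteins also have forms in the endoplasmic reticulum (ER) or in mitochondria, and chaperonins have a mitochondrial form. In worms the hsp-16 genes and hsp-70 are nearly silent until heat activates the factor HSF-1, whereas hsp-4 is raised by misfolding in the ER.

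A gene was counted as marked when a summit of the authors' list thresholded on reproducibility lay between 1000 bp upstream and 100 bp downstream of its start. Peak signal is a score set by the authors, in units the files do not define, and values in the replicate lists run lower than in the pooled lists. The thresholded list ran from 63.4 to 6467, with a median of 122 over 6626 peaks. Of the 59 chaperone genes, 28 were marked, or 47.5%, against 18.2% of all protein-coding genes. A further 18 had only a weaker call in the list of 30000 pooled calls, so that 78.0% had some call, against 38.6% of all protein-coding genes. No pooled call lay in the window of the other 13.

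The sequences at the strongest peak of each compartment are given first, as 60 bases around the summit on the strand of the gene (RefSeq, WBcel235). They lie upstream of hsp-60 for mitochondria (chrIII:1619146-1619205, plus strand), hsp-3 for the ER (chrX:6092149-6092208, minus strand) and hsp-1 for the cytosol (chrIV:17278563-17278622, plus strand). None of these 3 windows overlaps an annotated Ensembl exon.
hsp-60: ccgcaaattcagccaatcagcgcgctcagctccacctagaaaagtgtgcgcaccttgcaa
hsp-3: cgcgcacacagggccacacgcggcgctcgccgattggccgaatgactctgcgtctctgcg
hsp-1: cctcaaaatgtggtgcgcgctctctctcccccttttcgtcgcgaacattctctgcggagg
Over the 201 bp around a summit the median share of G and C was 41.3% for the 27 distinct chaperone peaks and 42.8% for all 6626 peaks.

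Mitochondrial chaperones included the strongest peak of all members. The gene hsp-60 encodes the mitochondrial chaperonin (chromosome III, 1619742 to 1625803, plus strand). Its summit lay 566 bp upstream of the start and had a pooled signal of 1077, rank 40 of 6626, with 539 in replicate 1 and 541 in replicate 2. The replicates were nearly equal, and no other member had a peak as strong in any of the lists. The same summit lay 247 bp upstream of Y22D7AL.10, a gene transcribed in the opposite direction that RefSeq annotates as the 10 kDa mitochondrial heat shock protein, the lid of the chaperonin barrel. The starts of barrel and lid genes were 813 bp apart, with 1 peak between them. The mitochondrial Hsp70 gene hsp-6 had a signal of 219, with 123 in replicate 1 and 95.1 in replicate 2, from a summit 417 bp upstream that it shared with the nucleolar complex gene C37H5.5. The mitochondrial J protein gene dnj-10 was close to the limit of the list, at 77.8, with 52.8 in replicate 1 and 26 in replicate 2. Its replicates differed more than those of any other marked member. No pooled call was found at hsp-75, for an Hsp90 of the TRAP1 type, or at dnj-21, for the import motor subunit TIM14. Thus 3 of 5 mitochondrial members were marked.

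In the ER, the constitutive and the inducible gene for the same chaperone stood far apart. Both hsp-3 and hsp-4 encode BiP, the Hsp70 of the ER lumen. The peak of hsp-3 (X, 6089028 to 6092124, minus strand) was the second strongest of all members, with a pooled signal of 653, 375 in replicate 1 and 275 in replicate 2. Its summit lay 55 bp upstream of the Ensembl start, the shortest distance of any marked member, and RefSeq places the start 339 bp further downstream. At hsp-4 (II, 7350112 to 7352645, minus strand) there was only a pooled call of 20.1, with 23.3 in replicate 1 and no call in replicate 2. Its nearest thresholded summit was 8487 bp away. The SEC63-type J protein gene dnj-29, of the protein translocation channel, was marked with a signal of 172, 68.6 in replicate 1 and 105 in replicate 2. That peak had higher signal in replicate 2, unlike most. The ER J protein genes dnj-20 and dnj-27 had weaker calls of 37.2 and 27.7. At dnj-7, for a J protein of the P58IPK type, each replicate had a call (37.2 in replicate 1 and 31.1 in replicate 2) but the pooled list had none. In all, 2 of 6 ER members were marked.

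In the cytosol the Hsp70 machine was marked at its constitutive genes. The cognate Hsp70 gene hsp-1 (IV, 17278959 to 17281330, plus strand) had a signal of 505, with 279 in replicate 1 and 226 in replicate 2, at 366 bp upstream, and shared its summit with no other coding gene. The exchange factor gene hsp-110 had 411, with 203 in replicate 1 and 205 in replicate 2, from a summit that also lay in the window of the proteasome subunit gene rpn-3. The heat-inducible hsp-70 (I, 9320325 to 9322519, minus strand) had a pooled call of 17.5 with 11.9 in replicate 1 and none in replicate 2. Both inducible Hsp70 genes among the members, hsp-4 and hsp-70, were thus without a thresholded peak, while hsp-1, hsp-3 and hsp-6 had one. The inducible Hsp70 genes F44E5.4 and F44E5.5, which the name rule leaves out, shared a thresholded peak of 171.

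**Figure D1:**
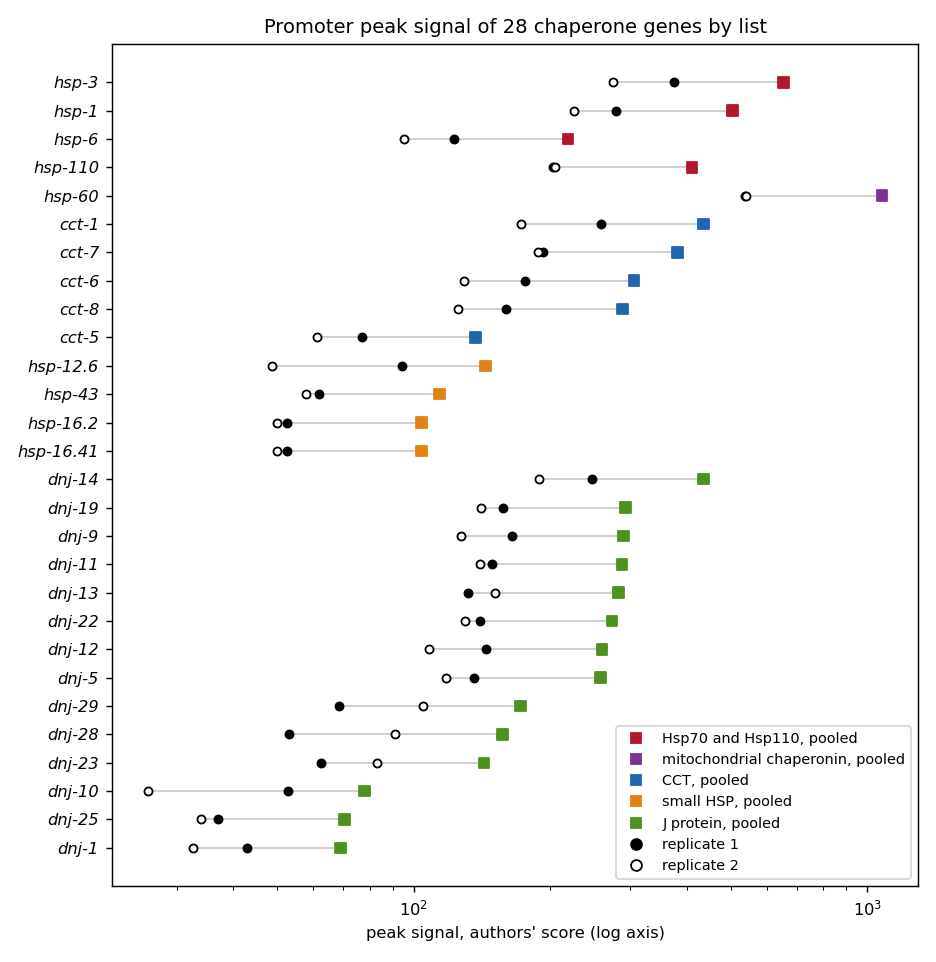
Peak signal (authors' score, log axis) of the 28 marked chaperone genes, grouped by family. Squares give the pooled list, filled circles replicate 1 and open circles replicate 2. The peak of hsp-60 lies farthest right at 1077, and all 4 small heat shock protein genes lie at 144 or less.

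The cytosolic chaperonin genes were marked at 5 of 8 subunits, or 62.5%, against 18.2% of all protein-coding genes. This complex, TRiC, folds actin and tubulin in a double ring to which each subunit contributes. Pooled signals were 435 at cct-1, 382 at cct-7, 306 at cct-6, 289 at cct-8 and 137 at cct-5. Replicate 1 ran from 76.9 at cct-5 to 259 at cct-1, and replicate 2 from 61.2 at cct-5 to 188 at cct-7. Every one of these 5 summits also lay in the window of a gene on the opposite strand: mig-5 at cct-1, T10B5.4 at cct-7, alh-9 at cct-6, Y55F3AR.2 at cct-8 and F25F2.1 at cct-5. The remaining subunits are all on chromosome II and had calls below the threshold, 43.4 at cct-2, 28.9 at cct-4 and 17.3 at cct-3. The call at cct-2 was 37.6 in replicate 1 and 11.6 in replicate 2. Promoter windows of subunits of 1 complex therefore spanned a range of more than an order of magnitude in signal. All 5 marked summits lay closer to the start of the opposite-strand gene, so their signals cannot be assigned to the subunit genes. With the nearest start only, none of the cct genes was marked.

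The Hsp90 gene showed how much the choice of start matters. The cytosolic Hsp90 gene hsp-90, also known as daf-21, was not marked by the rule. Ensembl gives it a first transcript start at V, 14684918, and its window held a pooled call of 23.9. A second transcript starts 1242 bp further downstream, where RefSeq places the start of the gene. A summit at 14685796, 364 bp upstream of that inner start, had a pooled signal of 598, 347 in replicate 1 and 253 in replicate 2. It ranked 176 of 6626, above hsp-1, and was 878 bp inside the outer start. It also lay in the window of C47E8.4. The 60 bases around it (chrV:14685766-14685825, plus strand) overlap no annotated exon.
hsp-90: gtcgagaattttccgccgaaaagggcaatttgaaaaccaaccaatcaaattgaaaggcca
With the start of every coding transcript, 31 of the 59 members were marked, against 19.9% of all protein-coding genes. The 3 gained were hsp-90, dnj-20 with a signal of 278 at a summit 313 bp upstream of the start of its short transcript, and dnj-16 with 161.

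J-domain proteins, which deliver substrates to Hsp70 and start its ATP cycle, were marked at 14 of 29 genes, or 48.3%. The share of all protein-coding genes was 18.2%. The strongest was dnj-14, for the cysteine string protein of synaptic vesicles, with 436 pooled, 247 in replicate 1 and 189 in replicate 2. Next came genes within a narrow range of pooled signal: dnj-19 at 293, dnj-9 at 290, dnj-11 at 288, dnj-13 at 283, dnj-22 at 274, dnj-12 at 260 and dnj-5 at 258. Their signals ran from 132 at dnj-13 to 165 at dnj-9 in replicate 1, and from 108 at dnj-12 to 151 at dnj-13 in replicate 2. The genes dnj-12 and dnj-19 encode class A and dnj-13 class B J proteins, the general partners of cytosolic Hsp70, and all 3 were marked. The dnj-19 summit, however, lay 381 bp upstream of dnj-19 and 15 bp upstream of the opposite-strand gene nhr-47. With the nearest start only, dnj-12 and dnj-13 stayed marked, while dnj-11, dnj-14, dnj-19 and dnj-22 did not. The gene dnj-11 encodes a protein of the MIDA1 type, and its summit was shared with F38A5.2.

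Among the weaker J protein peaks, some were even between replicates and others were not. Signals were 157 at dnj-28, 143 at dnj-23, 70.3 at dnj-25, for auxilin, which frees vesicles of clathrin with Hsp70, and 68.9 at dnj-1. At dnj-25 the replicates were close, with 37 in replicate 1 and 34 in replicate 2, while dnj-1 had 42.9 and 32.6. At dnj-28 replicate 1 had 53.1 and replicate 2 had 90.9, a log2 difference of -0.78 (replicate 1 minus replicate 2). At dnj-10 the difference was 1.02, so dnj-28 and dnj-10 lay at opposite ends of the marked members. Over the 27 distinct chaperone peaks the median difference was 0.21 (SD 0.40), against 0.31 (SD 0.49) over the 6593 thresholded peaks with a call in both replicates. Replicate 1 was higher at 21 of the 27, or 77.8%, close to the 76.2% over those 6593 peaks. Among the other J protein genes, 8 had a weaker pooled call (dnj-8, dnj-16, dnj-17, dnj-18, dnj-20, dnj-24, dnj-26 and dnj-27, 19.4 to 39.7) and 7 had none (dnj-2, dnj-3, dnj-4, dnj-7, dnj-15, dnj-21 and dnj-30).

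Marked small heat shock protein genes had signals of 104 to 144, below the median of 267 over marked chaperone genes. The median over all marked protein-coding genes was 139. Of 13, 4 were marked, or 30.8%, against 18.2% of all protein-coding genes. Without the 4 hsp-16 genes in identical copies described next it was 4 of 9 (44.4%), against 48.3% of J protein genes. The marked ones were hsp-12.6 at 144, hsp-43 at 114, and the pair hsp-16.2 and hsp-16.41 at 104 from 1 summit. The peak of hsp-12.6 had 94.2 in replicate 1 and 48.6 in replicate 2, whereas the shared hsp-16 peak, at 52.6 in replicate 1, was nearly even between them (log2 difference 0.07). Of the rest of the 12 kDa family, which heat does not induce, hsp-12.2 had a call of 55.6, hsp-12.3 one of 33.6 and hsp-12.1 none. The muscle gene hsp-25 had no call in its window, though a summit of signal 426 lay 2541 bp upstream. A weak call of 22.6 lay at hsp-17.

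The heat-inducible hsp-16 genes form head-to-head pairs, and the pairs could not be measured alike. The pair hsp-16.2 and hsp-16.41 (V, 1804334 to 1805875) has starts 221 bp apart with the summit between them. The other pairs, hsp-16.1 with hsp-16.48 (V, 9087293 to 9088617) and hsp-16.49 with hsp-16.11 (V, 9089280 to 9090604), are inverted copies that were identical at 1325 of 1325 bp. Of the 36-base words in the promoter window, 0% were found once in the genome for hsp-16.48 and hsp-16.49, 3.85% for hsp-16.1 and 7.41% for hsp-16.11, against a median of 100% over all members. Reads from these copies cannot be assigned to either. None of the 4 had a thresholded peak, and only hsp-16.11 had a pooled call (32.9, at 978 bp upstream). How such reads were aligned is not stated, and its part in the missing calls was not tested.

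The regions between the starts of an hsp-16 pair with a peak and of one without are shown, plus strand, with perfect heat shock elements in capitals. This element, bound by HSF-1, was searched on both strands as 3 alternating GAA and TTC units, each 2 bases apart. The first is the whole region between hsp-16.2 and hsp-16.41 (chrV:1804958-1805177), and the second the 220 bases before hsp-16.48 (chrV:9087911-9088130).
hsp-16.2 to hsp-16.41: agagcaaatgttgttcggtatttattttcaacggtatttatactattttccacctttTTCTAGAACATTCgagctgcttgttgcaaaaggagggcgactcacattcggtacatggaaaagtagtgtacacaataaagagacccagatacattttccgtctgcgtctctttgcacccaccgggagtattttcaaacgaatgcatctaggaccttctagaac
hsp-16.1 to hsp-16.48: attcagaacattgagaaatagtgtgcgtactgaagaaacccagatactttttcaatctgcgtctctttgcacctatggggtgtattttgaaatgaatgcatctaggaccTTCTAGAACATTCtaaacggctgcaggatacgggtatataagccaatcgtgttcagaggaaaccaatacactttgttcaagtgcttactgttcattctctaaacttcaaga
Each stretch shown holds 1 such element in full. In the 500 bp upstream of their starts, hsp-16.2 had 2 matches, hsp-16.41 had 1 and hsp-16.48 had 2.

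By class, constitutive genes were marked in 10 of 19 cases and inducible genes in 2 of 4 outside repeated sequence. Classes were set from general knowledge: constitutive genes are expressed without stress, inducible genes mainly under it. The response to stress was not measured here, so the constitutive class may include genes that stress also raises. The constitutive share was 52.6%, with a median signal of 344. Of all 8 inducible members, 2 were marked, or 25%, both through the hsp-16.2 and hsp-16.41 summit at 104. Among marked members only, the lowest constitutive signal, 114 at hsp-43, was above that 1 inducible summit. This order did not hold for the inducible Hsp70 genes F44E5.4 and F44E5.5, which the name rule leaves out. Their shared summit of 171 was above the constitutive hsp-12.6 (144), cct-5 (137) and hsp-43. Of the constitutive members without a peak, 6 had only weaker pooled calls, from 17.3 at cct-3 to 55.6 at hsp-12.2, and 3 had none. The mitochondrial genes hsp-6 and hsp-60, which are constitutive and raised further by mitochondrial stress, were both marked. The remaining 30, mostly J proteins, were given no class, and 14 of them were marked. The 25% counts as unmarked the 4 inducible windows that were largely repeated sequence, so it does not show a lower share for inducible genes, and 2 of 4 is too few for a comparison. Cytosolic genes were marked in 17 of 31 cases, or 54.8%, mitochondrial genes in 3 of 5 and ER genes in 2 of 6, or 33.3%. All 3 shares lay above the 18.2% of all protein-coding genes, but 5 and 6 genes are too few for a comparison. With the nearest start only, 7 cytosolic, 1 mitochondrial and 2 ER genes were left, beside 14.2% of all protein-coding genes.

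**Figure D2:**
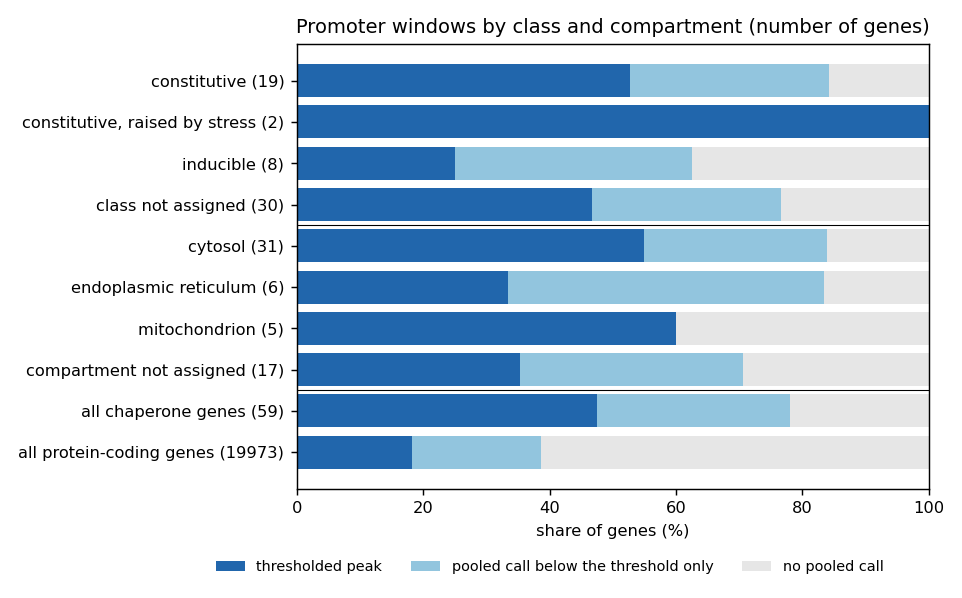
Share of genes (%) whose promoter window held a thresholded peak (dark blue), only a weaker pooled call (light blue) or no pooled call (grey), by class (top), by compartment (middle) and for all 59 chaperone genes and all 19973 protein-coding genes (bottom). Numbers of genes are in parentheses. All 8 inducible genes are drawn, of which 4 have repeated windows, and 2 of the other 4 have a peak, against 10 of 19 constitutive genes.

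The heat shock element was found at nearly all inducible members. In the 500 bp upstream of the start it was found at 13 of 59 members, or 22%, against 3.25% of all protein-coding genes. It was present at 7 of 8 inducible members, all but hsp-4, and at 3 of 19 constitutive ones, hsp-1, hsp-110 and hsp-90. The inducible genes are not independent cases here, since the hsp-16 pairs share their upstream region and 4 of the genes lie in identical copies. Members with a peak had it in 25% of cases and members without one in 19.4%, or in 2 of 27 (7.41%) without the 4 repeated windows. All 4 hold the element and lack a thresholded peak, so leaving them out could only lower that share. The 2 were hsp-70 and hsp-90, and hsp-90 had a peak upstream of its inner start. The 25% counts both hsp-16.2 and hsp-16.41, which share 1 upstream region. Within 100 bp of a summit the element was found at 3 of 27 chaperone peaks, against 0.830% of all thresholded peaks. These were the peaks of hsp-110, dnj-12 and the hsp-16.2 and hsp-16.41 pair. At hsp-110 the element was centred 11 bp from the summit (chrIII:8447121-8447180, minus strand, element in capitals).
hsp-110: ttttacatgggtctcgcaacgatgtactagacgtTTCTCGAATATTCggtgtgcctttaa
The shorter word TTCNNGAA, a part of the element, was found in 22.2% of chaperone summit windows of 201 bp and in 7.85% of all such windows. The hormone receptor half-site AGGTCA was found in 3.70% and 7.29%, and TGACGTG, part of the sites bound by the ER stress factor XBP-1, in 11.1% and 3.49%. The E-box CACGTG was found in 7.41% and 8.92%, the GATA word TGATAA in 7.41% and 15.2%, the forkhead word GTAAACA in 3.70% and 5.09%, and TATAAA in 14.8% and 10.1%. In each pair the chaperone peaks come first and all thresholded peaks after. Each of these shares at chaperone peaks rests on 1 to 6 of 27 windows, both strands were searched, and TTCNNGAA lies inside the longer element.

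Marked chaperone genes had stronger peaks than marked genes in general. Their median signal was 267, against 139 over all marked protein-coding genes. On the log2 scale the medians differed by 0.94, but by 0.21 when each summit was counted only for the nearest start. Of the 28, 14 were among the top 1 in 5 of all marked genes by signal (267 or more). Median distance from summit to start was similar, 248 bp upstream for the chaperone genes and 241 bp for all marked genes. Within 500 bp lay 25 of 28, or 89.3%, against 77.6% of all marked genes. The exceptions were hsp-60, dnj-5 at 799 bp and dnj-23 at 734 bp. No marked chaperone gene had its summit downstream of the start, where the window ended at 100 bp. Among all marked genes 4.81% had one at 0 to 100 bp, so none of 28 is close to the general share.

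**Figure D3:**
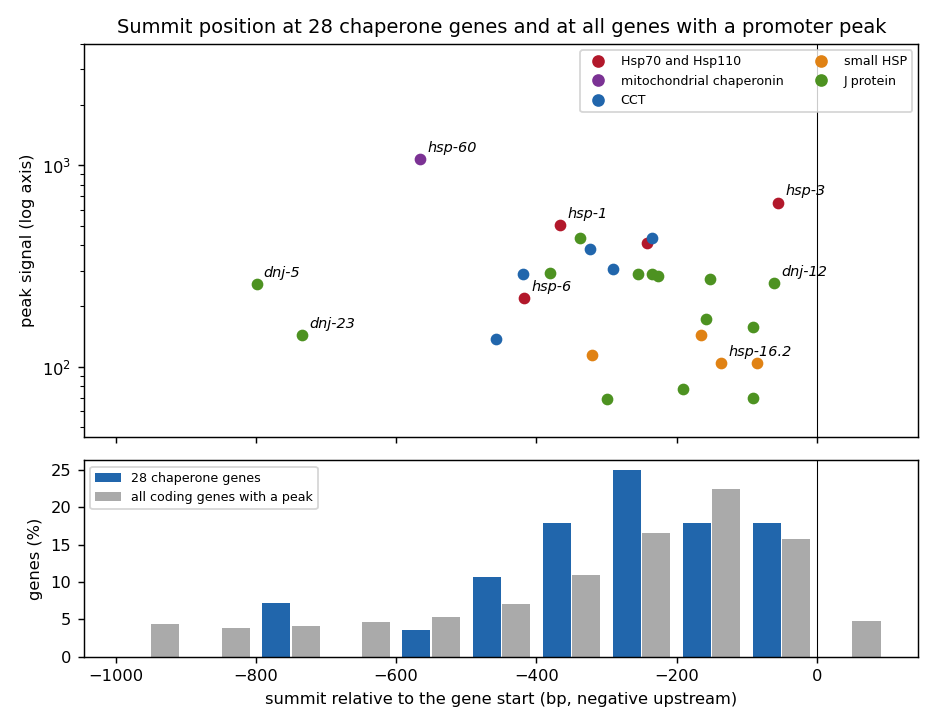
Top, position of the summit relative to the gene start (bp) and peak signal (log axis) for the 28 marked chaperone genes, by family. Bottom, share of the 28 (blue) and of all marked protein-coding genes (grey) in bins of 100 bp. The summit of hsp-60 lies 566 bp upstream, whereas hsp-3 lies 55 bp upstream.

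Most chaperone summits lay between divergent genes. Of the 28 marked members, 20 shared their summit with the window of another coding gene, or 71.4%, against 44.6% of all marked genes. Each partner was on the opposite strand. This arrangement was common among chaperone genes whether marked or not: an opposite-strand start lay within 1000 bp upstream of 28 of the 59, or 47.5%, against 17.7% of all protein-coding genes. Among members with such a neighbour 20 of 28 were marked, or 71.4%, against 38.9% of all genes so arranged. Among members without one 8 of 31 were marked, or 25.8%, against 13.8%. Members were thus marked more often than other genes in each arrangement. When each summit was counted only for the nearest start, 15 members were left, or 25.4%, against 14.2% of all protein-coding genes. The other 13 summits lay closer to the partner. They were those at hsp-60, hsp-6, hsp-110, hsp-16.2, dnj-11, dnj-14, dnj-19, dnj-22 and all 5 marked cct genes. Partners of known type included the neuroligin-like gene glit-1 at dnj-14 (signal 436) and the receptor gene nhr-47 at dnj-19 (293). Other examples were the respiratory chain gene ndua-2 at dnj-29 (172) and the mitochondrial import gene mtx-1 at dnj-12 (260). A peak cannot be assigned to 1 gene of such a pair.

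**Figure D4:**
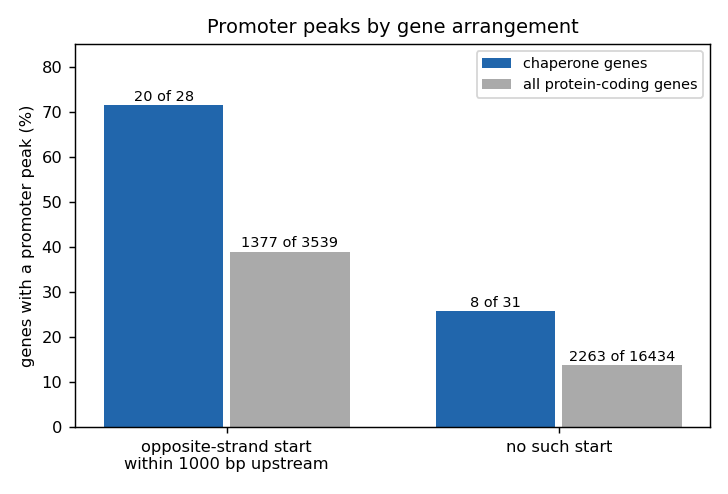
Share of genes (%) with a thresholded promoter peak, for genes with and without an opposite-strand start within 1000 bp upstream. Blue bars are the 59 chaperone genes and grey bars all protein-coding genes, with counts above. The blue bar is the higher one in both arrangements.

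Regulators and partners of the chaperones, from a list of 44 genes of other names, were marked in 32 cases, beside 18.2% of all protein-coding genes. This list was written with earlier results of these data known. Of 14 regulators, 8 were marked, and the strongest were xbp-1 and pek-1. The ER stress factor gene xbp-1 had 560, with 286 in replicate 1 and 266 in replicate 2. The sensor gene pek-1, for PERK, had 510, with 269 and 249. The sensor genes atf-6 and ire-1 had 283 and 207, and atf-4 had 173. For mitochondrial stress, atfs-1 had 289 and ubl-5 had 158, whereas dve-1 had a call of only 19.3. The FOXO gene daf-16 had 180. The heat shock factor gene hsf-1 itself had no thresholded peak, only a call of 39.4, as did its inhibitors hsb-1 (49.2) and ddl-1 (27.4), while ddl-2 and skn-1 had no call. ER folding factors were marked at 7 of 8 genes, including enpl-1, for the ER Hsp90 (405), crt-1, for calreticulin (400), and the disulfide isomerase genes pdi-3 (361) and pdi-6 (359). The only ER folding gene without a call was ero-1. Of 19 cytosolic partners 14 were marked, led by bag-1, for an Hsp70 exchange factor (654), and pfd-1, for prefoldin (347). The unnamed inducible Hsp70 genes F44E5.4 and F44E5.5 shared a summit of 171, so inducible Hsp70 genes were not all without a peak. Mitochondrial proteases were marked at 3 of 3 genes.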

How the data were processed

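ChIP-seq peak lists in ce11 were used as deposited: the list thresholded by the irreproducible discovery rate, the relaxed pooled list, and 1 relaxed list per replicate, each relaxed list called against a control, per the deposited README files. Per the labels, fragments were 150 to 350 bp. The signal value and the −log10 q-value of each peak are the authors' own. Neither the aligner, the caller, the thresholds nor the read depths are named in the sources at hand, so no value could be set beside its depth. Signal scales differ between pooled and replicate lists, so levels were compared within a list. The deposited −log10 q-value was not used to order peaks.

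Gene models came from Ensembl release 115 (WBcel235, the assembly of ce11) and sequence from RefSeq. A summit, the deposited start plus offset, counted for every protein-coding gene whose window held it, and a gene took its strongest summit. Replicate values are the strongest call overlapping the pooled peak by at least 1 bp. Coordinates are 1-based. The ce10 lists were not used here, and proteins of hsp-3 and hsp-4 are not shown. Compartments, classes, motifs and the partner list were set by hand. The members and lists were chosen with earlier results of these data known. Every marked member is named, with all regulators and the 8 genes of highest signal in the whole partner list, regulators included. The other partners named were chosen after their values were seen. The assignment gave the chosen gene 200 of 200 simulated summits planted in its window and 0 of 200 planted further upstream. Planting and assignment used the same window, so this checks the code only. There being 1 group, counts and medians are descriptions with no test. Alternatives were other windows, every transcript start, stronger peaks, each replicate alone, nearest start only and all pooled calls. Added after the data were seen were counts without the 4 members whose windows had under 50% of words unique, the search for CCAAT, the count of 36-base words found once and the count of calls strong in both replicates. Python 3.11.15, numpy 2.4.6, pandas 2.3.3 and matplotlib 3.10.9 were used.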

Additional observations from a re-analysis of the deposited data

How the results depend on the processing

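The count of marked chaperone genes was 28 as reported, and close to it for windows of 500 bp (26) and 2000 bp (30), for every transcript start (31), for the peaks above the median signal (22) and for either replicate alone (28 to 30). It was 46 with all pooled calls and 15 with the nearest start only. Leaving out the 4 repeated windows, chosen after seeing the data, kept it at 28 of 55. The share of all protein-coding genes moved with the setting too, so a similar count is not a similar contrast. As reported, 47.5% of members were marked against 18.2% of all protein-coding genes. The shares were 44.1% against 14.5% at 500 bp and 50.8% against 23.8% at 2000 bp. They were 52.5% against 19.9% with every transcript start, and 37.3% against 10.6% for peaks above the median signal. All pooled calls also gave 26 cytosolic, 5 ER and 12 members of no set compartment, and 16 constitutive, 5 inducible and 23 members of no class. The nearest start alone gave 7 cytosolic and 1 mitochondrial member, and 4 constitutive, 1 inducible and 0 constitutive members raised by stress. The 500 bp window left 1 of the last kind, and the peaks above the median signal left 0 inducible members. The median log2 signal of marked members was 0.94 above that of all marked genes. It was 0.79 to 0.91 with 1 replicate left out, 0.48 among peaks above the median signal and 0.21 with the nearest start only, and the cause was not tested. Replicate 1 alone added cct-2 and dnj-7, and replicate 2 alone added dnj-7 and lost dnj-10. No paired analysis was possible because there was 1 group and no test.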

Other observations

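The J protein gene dnj-7 was the only member with a call among the 6626 strongest of each replicate (rank 6538 in replicate 1 and 6296 in replicate 2) but no pooled call in its window. Of 5486 strong replicate 1 calls that overlapped a strong replicate 2 call, 19 had no overlapping pooled call.

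The word CCAAT, searched on both strands after the sequences above had been seen, was found in 12 of 27 chaperone summit windows, or 44.4%, and in 30.8% of all such windows. RefSeq gives the names hsp-16.20 and hsp-16.21 to F08H9.3 and F08H9.4, which the Ensembl names leave outside the rule. F08H9.4 had a peak of 63.6, close to the lowest of the list, and F08H9.3 had no call.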
